A study of Mus musculus with 2 samples.

Results

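Genes that make fatty acids and triglycerides, store them in lipid droplets, break them down again and carry them into cells were followed through single-cell libraries of mouse liver. The members were chosen by name from a fixed list, and all 45 were among the 33696 genes of the count tables. One library came from liver tissue of mice labelled SLC22A18-/-, called the knockout-labelled library here, and the other from mice labelled SLC22A18+/+, called the wild-type library. Slc22a18 is an imprinted gene for a membrane transporter, and fatty liver is among the subjects named in the title of the study. Each genotype had 1 library, so there were no replicates, no statistical test was run, and every interval in brackets is a 95% interval that covers counting error only. Strain, age, sex, diet, the number of animals and the deleted part of the gene were not given in the sources used here, so genotype cannot be told apart from animal, background or preparation.

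Hepatocytes build fatty acids from acetyl-CoA when sugar is plentiful. The transcription factors SREBP-1c (Srebf1) and ChREBP (Mlxipl) switch on the enzymes of this route, and Thrsp and Mid1ip1 encode small proteins that favour it. Fatty acids are elongated and desaturated, joined to glycerol in a chain of reactions that ends with the Dgat enzymes, and packed into droplets coated by perilipins and CIDE proteins. Lipases and their regulators release them again. Liver cells differ along the lobule, from periportal cells near the incoming blood to pericentral cells near the central vein, and synthesis of fatty acids is one of the functions that can differ along this axis.

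The knockout-labelled library held 103478998 unique molecular identifiers (UMIs, 1 for each captured RNA molecule) in 11741 barcodes, while 12796 barcodes with 105556354 UMIs made up the wild-type library. Filters kept 11126 and 12002 cells, and 38 barcodes occurred in both libraries. Clusters that carried hepatocyte markers, called hepatocytes here although the name stands for hepatocyte-like cells, comprised 3199 cells with 29058435 UMIs in the knockout-labelled library and 3319 cells with 29290668 UMIs in the wild-type library. Levels are UMIs of a gene per 1000000 UMIs of the same cells (CPM), and ratios are the knockout-labelled over the wild-type library. Alb, the albumin gene that defines hepatocytes, was at 8227 and 11008 CPM in these clusters and at most 5667 CPM in any of the other classes read. Slc22a18 itself was read at 52.4 CPM in knockout-labelled hepatocytes and 57.9 CPM in wild-type hepatocytes, a ratio of 0.906 (0.845 to 0.971), so these counts do not verify the genotype label. Reads at the 3′ end may lie outside the deleted part of the gene, which was not given in the sources used here.

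In hepatocytes the lipogenic and droplet genes lay on both sides of equality between the libraries. Scd1 and the binding protein gene Fabp5 were the lowest in the knockout-labelled library relative to wild type, and Cidec and Pparg were the highest. Of the 45 members, 43 had at least 50 UMIs over both libraries, and the rest were Mogat1 with 15 and 8 UMIs and Cidea with 0 and 2 UMIs. None passed a rule that asked for a ratio of at least 2 in either direction, an interval without 1, and detection in 5% or more of cells in whichever library was higher. Over all 14966 genes with enough UMIs, 0.287% passed that rule as higher and 0.147% as lower. When the level of one library had only to exceed the other by 25%, called the 25% rule here, 6 members were higher (Pparg, Elovl5, Fads2, Cidec, Mgll and Slc27a2), against 5.04% of all genes, and 6 were lower (Mid1ip1, Acly, Scd1, Plin2, Fabp1 and Fabp5), against 5% of all genes. The other 31 passed neither rule. With a ratio of 1.5 as the limit, Cidec alone was higher, against 1.1% of all genes, and 3 were lower (Mid1ip1, Scd1 and Fabp5), against 0.735%. The median log2 ratio of the 43 members was -0.0036, and that of all genes was 0.056.

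Among the regulators, Mlxipl was the most abundant, at 909 CPM in knockout-labelled and 843 CPM in wild-type hepatocytes, a ratio of 1.08 (1.06 to 1.10). Thrsp stood at 645 and 802 CPM, a ratio of 0.804 (0.789 to 0.820), just outside the limit of the 25% rule. Mid1ip1 (chrX:10715013-10719690 in GENCODE vM21 on GRCm38, as are all gene positions here) was read at 57.8 and 88.0 CPM, 1.52-fold lower in the knockout-labelled library (1.43 to 1.62). Pparg, a nuclear receptor known for driving fat storage, stood on the other side, at 55.5 and 38.9 CPM and a ratio of 1.43 (1.32 to 1.54). Srebf1 was read at 89.0 and 102 CPM. The regulators thus held members on both sides of 1.

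Of the 7 genes of fatty acid synthesis, Acly alone passed the 25% rule. Acly (chr11:100476353-100528000) encodes ATP citrate lyase, which releases the acetyl-CoA used for synthesis, and was read at 165 and 228 CPM, 1.38-fold lower (1.33 to 1.43). Acaca, the acetyl-CoA carboxylase that makes malonyl-CoA for synthesis, was at 684 and 677 CPM, with an interval of 0.990 to 1.03 that contained 1. Fasn, the fatty acid synthase, was at 175 and 205 CPM, a ratio of 0.855 (0.823 to 0.887). Acss2, which makes acetyl-CoA from acetate, was at 342 and 311 CPM, a ratio of 1.10. Pklr and Me1 lay at 0.892 and 0.885 and Acacb at 1.15.

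The elongases and desaturases were split most widely. Scd1 (chr19:44394455-44407879) encodes the stearoyl-CoA desaturase that places the double bond of oleate. It was read at 176 CPM in the knockout-labelled and 344 CPM in the wild-type library, 1.95-fold lower (1.89 to 2.02). Within single hepatocyte clusters the difference was smaller, as described below. Fads2 (chr19:10062765-10101746), the first desaturase in the synthesis of long polyunsaturated fatty acids, was at 667 and 500.1 CPM, a ratio of 1.33 (1.31 to 1.36). Elovl5, an elongase of the same route, was at 179 and 139 CPM, a ratio of 1.28 (1.23 to 1.34). Fads1 lay at 1.13 and Elovl6, which elongates palmitate, at 1.09. All 4 of these genes were thus on the opposite side of 1 from Scd1.

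None of the 6 measured genes of glycerolipid synthesis passed the 25% rule. Lpin2, a phosphatidate phosphatase, was at 704 and 689.5 CPM, and Gpam, which starts the route at the mitochondrion, was at 303 and 308 CPM. Dgat2, which completes triglycerides, was at 285 and 286 CPM with a ratio of 0.998 (0.968 to 1.03). The group ranged from 0.831 for Agpat2 to 1.11 for Dgat1.

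Among the droplet coat genes, Plin2 and Cidec differed in opposite directions. Plin2, the main perilipin of hepatocyte droplets, was at 175 and 223 CPM, 1.27-fold lower (1.22 to 1.32). Cidec, which promotes droplet fusion, was at 17.6 and 11.6 CPM from 510 and 341 UMIs, a ratio of 1.51 (1.31 to 1.73). Plin3, Plin4, Plin5 and Hilpda had intervals that contained 1, and Cideb lay at 0.917. Of the lipolysis genes, Mgll, which cleaves the last fatty acid from glycerol, was at 251 and 178 CPM, a ratio of 1.41 (1.36 to 1.46). G0s2, an inhibitor of the lipase Pnpla2, was at 111 and 123 CPM, while Pnpla2 was at 27.0 and 27.0 CPM.

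In the group for uptake and binding, Fabp1 was the most abundant member, at 4661 and 5907 CPM, 1.27-fold lower in the knockout-labelled library (1.26 to 1.28). Fabp5 (chr3:10012548-10016607) was at 169.9 and 297 CPM, 1.75-fold lower (1.69 to 1.81). Slc27a2, a very long chain acyl-CoA synthetase that also serves uptake, was at 941 and 742 CPM, a ratio of 1.27 (1.245 to 1.29). Fabp1 and Fabp5 are cytosolic fatty acid binding proteins, and their ratios lay above 1 in the Malat1-rich clusters described next. For 8 members, Dgat1, Cidea, Hilpda, G0s2, Cd36, Fabp4, Lpl and Slc27a4, the hepatocyte level was under 10% of that in another class in both libraries, so free RNA from other cells cannot be told apart from their own expression.

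Shares of hepatocytes with a UMI, after each cell was thinned to 2861 UMIs, pointed the same way for Scd1, Pparg and Mgll. Thinning left out 534 and 767 shallower cells. Scd1 was found in 25.2% (23.5 to 26.9) of knockout-labelled and 37.5% (35.7 to 39.5) of wild-type hepatocytes, while T cell-like cells at the same depth, taken as background, had 17.9% and 24.6%. Without thinning, the hepatocyte shares of Scd1 were 45.9% and 58.2%. Pparg was found in 12.98% and 9.29% of hepatocytes, against 1.52% and 0.664% of T cell-like cells, and in 26.6% and 20.04% of hepatocytes without thinning. Mgll was found in 47.5% and 37.2% of hepatocytes, against 4.85% and 4.65% of T cell-like cells, and in 64.9% and 56.0% of hepatocytes without thinning. Among hepatocytes deep enough for thinning, median depths before thinning were 6573 and 6522.5 UMIs, against 5588 and 5153 UMIs over all hepatocytes. Among T cell-like cells deep enough for thinning, they were 6151.5 and 5915.5 UMIs. Fabp1 was found in 47.9% and 52.2% of T cell-like cells, against 94.1% and 93.5% of hepatocytes (98.5% and 97.7% without thinning), so a single Fabp1 UMI does not mark a hepatocyte.

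Other genes of the pathway, 67 listed in addition to the members, gave the same kind of split. With 63 of them measured in hepatocytes, none passed the 2-fold rule, while 7 were higher and 5 lower by the 25% rule, against 5.04% and 5% of all genes. Among the higher ones were Acsl1, an acyl-CoA synthetase, at 918 and 565 CPM (1.62), and the hepatic lipase Lipc at 579 and 388 CPM (1.49). On the other side were Insig1, a brake on SREBP processing, at 202 and 335 CPM (0.603), and Angptl8, a regulator of lipoprotein lipase, at 132 and 212 CPM (0.624).

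The hepatocytes fell into 5 clusters, made without the members and the other pathway genes, and these differed strongly in the members. Malat1, a nuclear long noncoding RNA, took between 3.50% and 4.59% of UMIs in clusters 8, 9 and 17, called Malat1-rich here, and 0.159% in cluster 19, called Malat1-poor. The Malat1-rich clusters held 79.3% of knockout-labelled and 72.9% of wild-type hepatocytes, and the Malat1-poor cluster held 20.6% (19.2 to 22.0) and 25.5% (24.1 to 27.1). The median depth of Malat1-poor cells was 2578 and 2748.5 UMIs, against 6088.5 and 5686 UMIs in Malat1-rich cells. Alb was at 14609 and 20508 CPM in Malat1-poor cells. In Malat1-rich cells it was at 6924 and 7301 CPM, nearer to the 5667 CPM that was the most in any other class read. Cluster 20, led in part by genes of cell division, had 5 and 50 cells and was left out of both. It held 399 and 1920 of the 5124 and 10085 Scd1 UMIs of all hepatocytes, at 1108 and 1759 CPM.

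**Figure D1:**
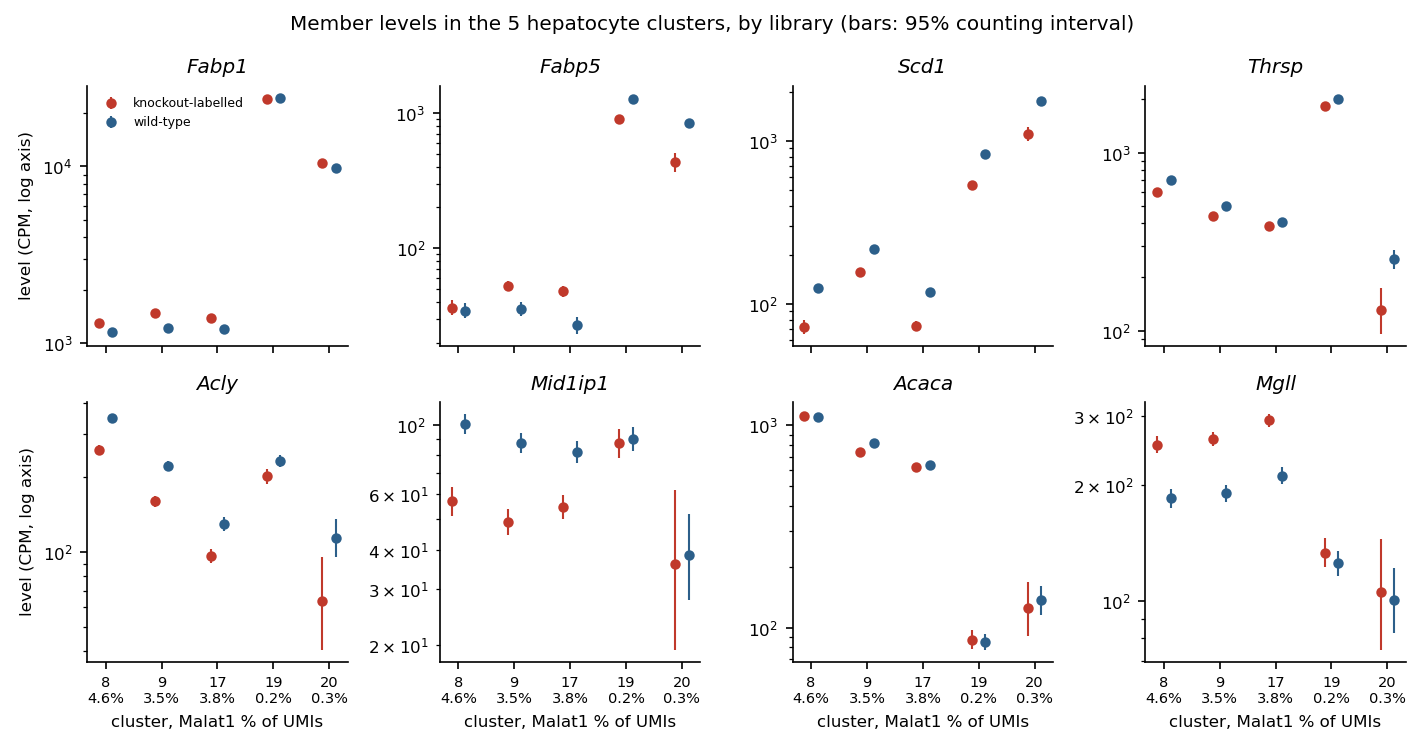
Levels in CPM on a log axis (vertical) of 8 members in the 5 hepatocyte clusters (horizontal, with the percent of UMIs that were Malat1), 1 point per library with its 95% counting interval. Fabp1, Fabp5 and Scd1 are far higher in cluster 19 than in clusters 8, 9 and 17, Acaca is far lower there, and Scd1 is lower in the knockout-labelled library in every cluster shown.

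Fabp1 was read at 24192 and 24310 CPM in Malat1-poor cells and at 1403 and 1199 CPM in Malat1-rich cells, 17.2-fold and 20.3-fold apart in the knockout-labelled and the wild-type library. Fabp5 was at 903 and 1267 CPM against 46.9 and 32.5 CPM. Scd1 was at 539 and 831 CPM against 104 and 156 CPM, and Thrsp at 1830.5 and 1997 CPM against 460.0 and 535 CPM. In the opposite direction, Acaca was at 87.2 and 85.1 CPM in Malat1-poor cells against 789 and 849 CPM in Malat1-rich cells, and Mlxipl at 60.6 and 68.5 CPM against 1059 and 1067 CPM. At least 2-fold higher in Malat1-poor cells in both libraries were 9 of 43 members (Thrsp, Scd1, Agpat2, Plin2, Plin5, Cideb, Pnpla2, Fabp1 and Fabp5), against 14.7% of all genes. At least 2-fold lower were 20 of 43, against 52.5% of all genes, so the lower members were not more frequent than genes at large.

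Library ratios within these clusters differed from the pooled ones. In Malat1-rich hepatocytes Fabp1 had a ratio of 1.17 (1.15 to 1.19) and Fabp5 of 1.44 (1.31 to 1.58), on the other side of 1 from the ratios over all hepatocytes. Fabp5 levels in Malat1-rich cells were under 10% of the 554 and 549 CPM of endothelial-like cells. Those of Fabp1 were under 10% of its levels in Malat1-poor cells. The part of free RNA in these ratios was not tested. In the Malat1-poor cluster Fabp1 was at 0.995 (0.987 to 1.003) and Fabp5 at 0.713 (0.685 to 0.742). Scd1 stayed low in both, at 0.663 (0.630 to 0.698) in Malat1-rich and 0.649 (0.616 to 0.683) in Malat1-poor cells, and lay between 0.580 and 0.716 in the 5 clusters taken singly. Acly was at 0.694 (0.666 to 0.723) and 0.864 (0.790 to 0.944), and was below 1 in all 5 clusters. Mid1ip1 was at 0.593 (0.553 to 0.636) in Malat1-rich cells, and its interval of 0.845 to 1.11 in Malat1-poor cells contained 1. Pparg, at 1.36 (1.26 to 1.47) in Malat1-rich cells, had an interval in Malat1-poor cells, from only 35 and 58 UMIs there, of 0.533 to 1.29. Fads2 reversed, at 1.28 (1.254 to 1.31) in Malat1-rich and 0.829 (0.739 to 0.929) in Malat1-poor cells. Plin2 was at 0.725 (0.692 to 0.759) in Malat1-rich and 1.18 (1.10 to 1.254) in Malat1-poor cells. Whether the 2 kinds of cluster differ in these ratios beyond counting error was not tested.

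By the 25% rule, 8 members were higher in the knockout-labelled library in Malat1-rich hepatocytes (Pparg, Elovl5, Fads2, Cidec, Abhd5, Mgll, Fabp5 and Lpl), against 4.61% of all genes, and 6 were lower (Mid1ip1, Acly, Scd1, Lpin1, Plin2 and Pnpla3), against 2.8% of all genes. In the Malat1-poor cluster, 0 of 39 were higher, against 3.29% of all genes, and 5 were lower (Elovl5, Elovl6, Scd1, Fabp4 and Fabp5), against 4.43%. When both libraries were given one common mixture of the 5 clusters, 4 members were higher by 25%, against 3.32% of all genes, and 4 lower, against 1.99%. The 4 lower ones were Mid1ip1, Acly, Scd1 and Fabp5, all of them also lower in the pooled comparison, while Fabp1 came to 1.03. Scd1 was 1.54-fold lower there, against 1.95-fold in the pooled cells. The higher ones were Pparg, Cidec, Mgll and Lpl, of which Lpl had not passed in the pooled cells. Elovl5 (1.24), Fads2 (1.24), Slc27a2 (1.17) and Plin2 (0.849) no longer passed.

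**Figure D2:**
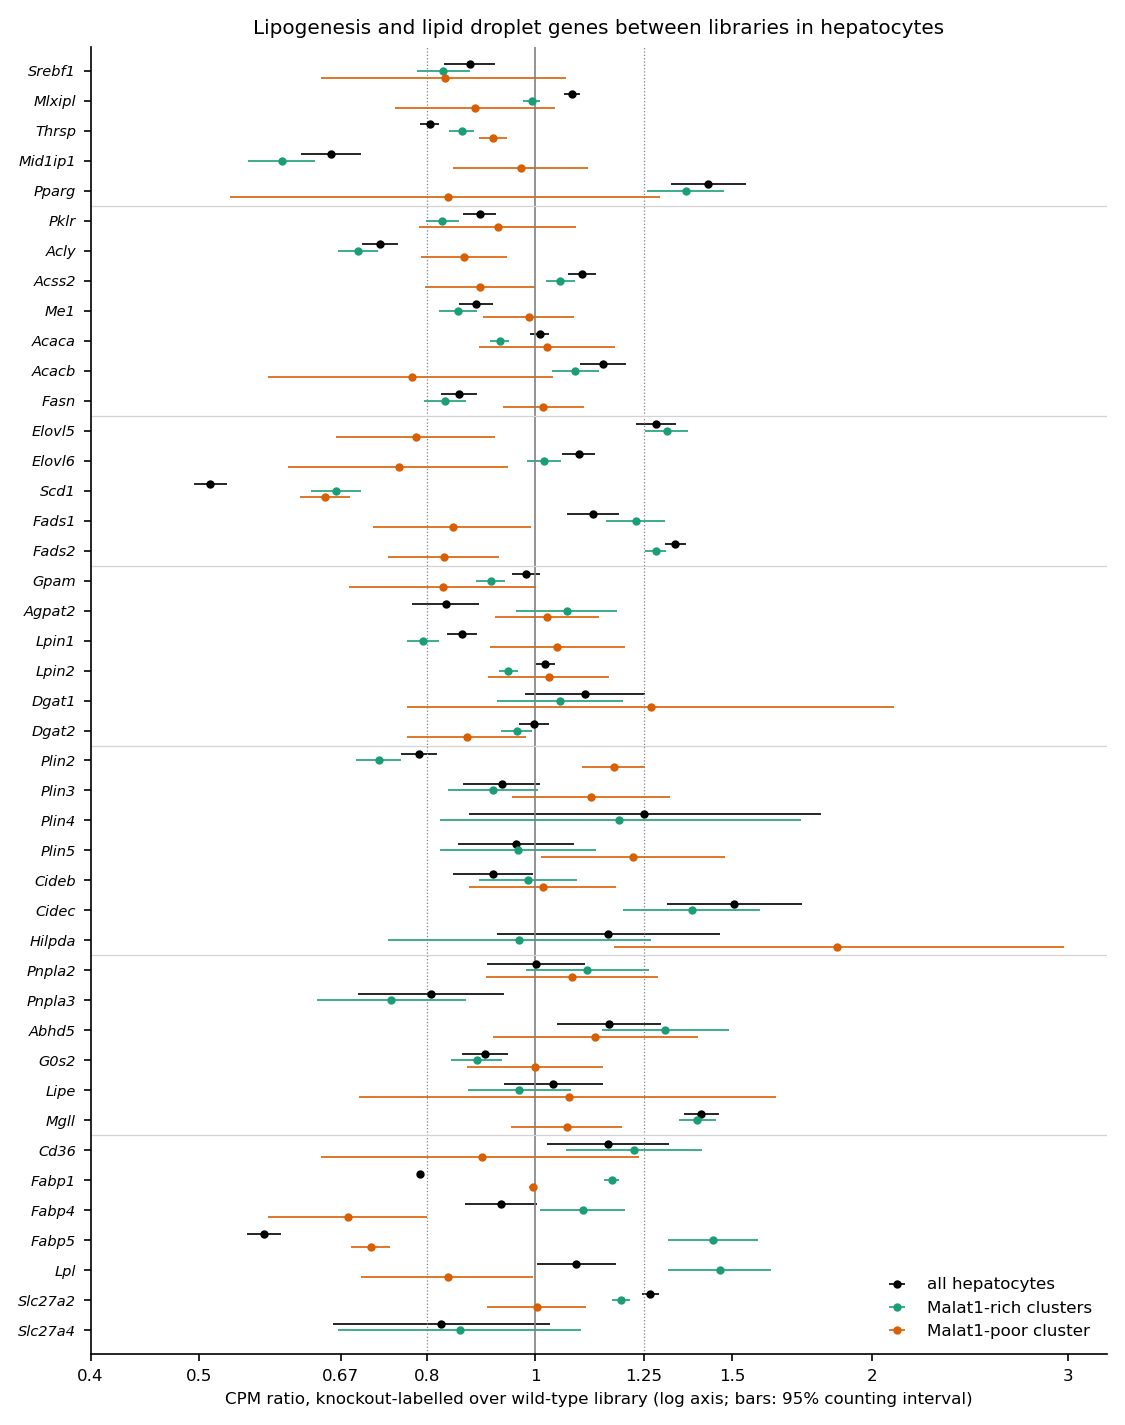
CPM ratio of the knockout-labelled over the wild-type library (horizontal, log axis) for the 43 members with at least 50 UMIs (vertical, grouped by role), in all hepatocytes, in the Malat1-rich clusters and, for members with at least 50 UMIs there, in the Malat1-poor cluster, with 95% counting intervals. Dotted lines mark the limits of the 25% rule. Scd1 lies left of the lower limit in all 3 sets, while Fabp1 and Fabp5 do so in all hepatocytes and lie right of 1 in Malat1-rich clusters.

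Along the lobule, over all hepatocytes, Acly, Fasn, Acaca and Pklr of fatty acid synthesis were highest at the periportal end. The polyunsaturated desaturases, Pparg and Lpl were highest at the pericentral end. Within Malat1-rich hepatocytes, only Pparg and Lpl of these stayed pericentral by the rule given below. Hepatocytes were ordered by landmark genes that were not members and divided into 5 bins, from 1 (most periportal) to 5 (most pericentral). A member was called zoned where the outer bins differed at least 1.5-fold in the same direction in both libraries with intervals that excluded 1. Of 43 members, 9 were periportal (Thrsp, Pklr, Acly, Acaca, Fasn, Lpin1, Pnpla3, Fabp1 and Fabp5), against 8.68% of all genes, and 6 were pericentral (Pparg, Fads1, Fads2, Lpin2, Lpl and Slc27a2), against 7.61%. The periportal call of Fabp1 held only for all hepatocytes pooled. Within the Malat1-rich and within the Malat1-poor clusters, Fabp1 was higher at the pericentral end in both libraries, as given below. Fatty acid synthesis gave 4 of its 7 genes to the periportal side, and the other 3 passed in neither direction. Of these, Acss2 was 1.71-fold (1.57 to 1.86) and 1.35-fold (1.251 to 1.47) higher at the pericentral end, Acacb 1.47-fold and 1.31-fold and Me1 1.05-fold and 1.19-fold.

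Acly was read from bin 1 to bin 5 at 287, 238, 178, 134 and 69.0 CPM in the knockout-labelled library and at 366, 297, 239, 182 and 90.6 CPM in the wild-type library. The periportal end was 4.16-fold (3.71 to 4.68) and 4.03-fold (3.63 to 4.49) above the pericentral end, and the knockout-labelled library was below the wild-type library in each bin, at ratios of 0.734 to 0.8004. Fasn went from 304 to 101 CPM and from 297 to 120 CPM, 3.01-fold (2.72 to 3.33) and 2.48-fold (2.25 to 2.74). Acaca went from 825 to 491 CPM and from 825 to 431 CPM, a shallower slope of 1.68-fold and 1.91-fold. Thrsp went from 1379 to 365 CPM and from 1516 to 396 CPM. Pnpla3, a droplet lipase and acyltransferase, went from 21.1 to 4.98 CPM and from 21.8 to 9.36 CPM, and Lpin1, a phosphatidate phosphatase, from 322 to 169 CPM and from 364 to 182 CPM. Pklr had slopes of 1.78-fold and 2.15-fold. The same order of ends in both libraries was required by the rule for zoned members, so it is not a separate result.

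Lpl, the lipoprotein lipase, had the steepest pericentral slope among the members, from 17.9 to 79.6 CPM and from 16.0 to 96.5 CPM, 4.45-fold (3.41 to 5.91) and 6.05-fold (4.67 to 7.94). Its level in hepatocytes was low beside that of macrophages, and free RNA was not subtracted, so the part of free RNA in this slope was not tested. Pparg was read from bin 1 to bin 5 at 24.0, 35.6, 52.1, 67.8 and 75.8 CPM in the knockout-labelled library and at 17.9, 25.0, 43.3, 44.2 and 56.7 CPM in the wild-type library. Its slopes were 3.15-fold (2.49 to 4.04) and 3.17-fold (2.45 to 4.15), and the knockout-labelled library was higher in all 5 bins. Fads2 went from 378 to 775 CPM and from 343 to 601 CPM, Fads1 from 64.5 to 123 CPM and from 65.7 to 113 CPM, Lpin2 from 389 to 862 CPM and from 465 to 818 CPM, and Slc27a2 from 644 to 1036 CPM and from 538 to 830.1 CPM. Scd1 was not zoned by the rule, and its library ratio lay between 0.453 and 0.641 in the 5 bins. The part of the mixture of clusters in these library ratios was not tested.

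**Figure D3:**
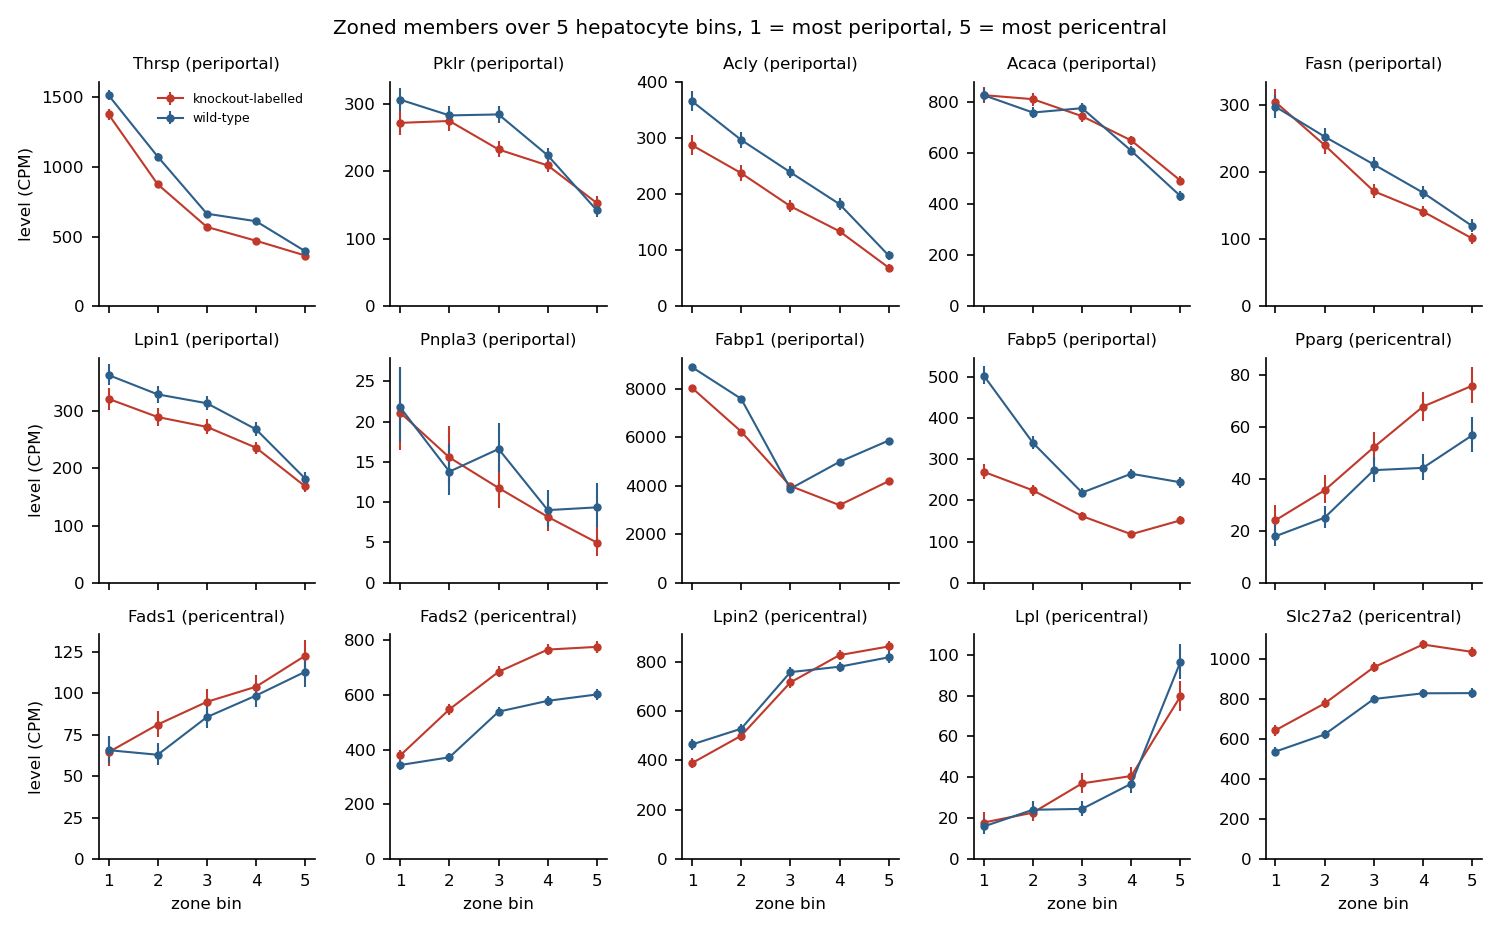
Level in CPM (vertical) over the 5 zone bins (horizontal, 1 most periportal, 5 most pericentral) for the 15 zoned members, 1 line per library with 95% counting intervals. Acly, Fasn and Thrsp fall from bin 1 to bin 5 and Pparg, Fads2 and Lpl climb in both libraries, while Fabp1 and Fabp5 are lowest in bin 3 or 4 and not in bin 5.

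The Malat1-poor cluster supplied 34.7% and 36.8% of the UMIs of bin 1 and 7.84% and 12.9% of those of bin 5, and the part of this mixture in the slopes was not tested. Within Malat1-rich hepatocytes, 9 of 43 members were periportal, against 3.52% of all genes. These were Srebf1, Thrsp, Pklr, Acly, Acaca, Fasn, Elovl6, Lpin1 and Pnpla3, so that Fabp1 and Fabp5 were no longer called and Srebf1 and Elovl6 were. Acly had slopes of 4.81-fold and 4.76-fold there, Fasn of 3.68-fold and 3.04-fold and Srebf1 of 1.55-fold and 1.62-fold. Pericentral members numbered 2 of 43, Pparg and Lpl, against 3.73% of all genes. Fads1, Fads2, Lpin2 and Slc27a2 were thus no longer called pericentral in Malat1-rich hepatocytes. Within the Malat1-poor cluster, 35 members had enough UMIs, of which 8 were pericentral (Elovl5, Scd1, Fads1, Fads2, Gpam, Dgat2, Lpl and Slc27a2), against 10.4% of all genes, and 4 were periportal (Thrsp, Mid1ip1, Acly and Lpin1), against 3.63%. Thrsp, Acly and Lpin1 were periportal in both kinds of cluster.

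The promoters of 5 periportal members are shown because these genes share the periportal slope in both libraries, each has 1 promoter in the RefSeq table, and the window touches no annotated exon. Each is the 250 bases before the start site, 5′ to 3′ on the gene's strand, from RefSeq on GRCm38.p6. Capitals mark the motifs searched on both strands. These were the NF-Y box CCAAT, the nuclear receptor motif AGGTCA, the E-box CACGTG known as a core of ChREBP and USF sites, and the sterol regulatory element TCACNCCAC. Acaca lies at chr11:84195188-84195437 on the plus strand. This window is inside the annotated gene (chr11:84129672-84401651) and not before its first base. Whether transcription starts there in these cells was not tested. Fasn lies at chr11:120824548-120824797 on the minus strand, Acly at chr11:100528001-100528250 on the minus strand, Lpin1 at chr12:16610967-16611216 on the minus strand and Pnpla3 at chr15:84167566-84167815 on the plus strand.
Acaca: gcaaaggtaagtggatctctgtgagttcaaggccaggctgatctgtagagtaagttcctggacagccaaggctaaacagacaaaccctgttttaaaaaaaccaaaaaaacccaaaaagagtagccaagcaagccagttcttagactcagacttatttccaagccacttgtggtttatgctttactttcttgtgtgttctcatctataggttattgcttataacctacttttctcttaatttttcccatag
Fasn: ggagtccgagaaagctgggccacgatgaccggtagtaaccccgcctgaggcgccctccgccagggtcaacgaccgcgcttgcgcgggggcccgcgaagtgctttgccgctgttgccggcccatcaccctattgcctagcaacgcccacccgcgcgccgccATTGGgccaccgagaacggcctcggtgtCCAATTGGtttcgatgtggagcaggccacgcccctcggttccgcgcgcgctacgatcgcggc
Acly: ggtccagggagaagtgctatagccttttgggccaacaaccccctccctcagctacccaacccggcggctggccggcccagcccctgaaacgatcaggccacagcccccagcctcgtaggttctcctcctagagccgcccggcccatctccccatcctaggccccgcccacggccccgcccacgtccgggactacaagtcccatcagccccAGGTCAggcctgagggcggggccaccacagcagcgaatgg
Lpin1: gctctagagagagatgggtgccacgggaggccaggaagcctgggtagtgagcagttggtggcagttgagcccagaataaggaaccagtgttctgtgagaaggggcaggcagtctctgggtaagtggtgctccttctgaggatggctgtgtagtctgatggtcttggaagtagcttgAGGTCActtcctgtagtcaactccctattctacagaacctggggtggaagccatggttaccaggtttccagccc
Pnpla3: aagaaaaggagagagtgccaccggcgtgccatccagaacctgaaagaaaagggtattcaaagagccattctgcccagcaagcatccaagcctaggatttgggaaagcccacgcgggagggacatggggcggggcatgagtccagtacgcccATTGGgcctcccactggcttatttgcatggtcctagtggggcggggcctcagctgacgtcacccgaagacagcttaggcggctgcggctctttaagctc

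Fasn held 3 NF-Y boxes, 90, 62 and 59 bases before the start, of which the last pair overlap as one palindrome. Pnpla3 held 1, at 99 bases. Acly and Lpin1 each held 1 nuclear receptor motif, at 40 and 74 bases. The window of Acaca, which lies inside the gene, held none of the motifs searched, and none of the 5 windows held an E-box or the sterol element. Among all 32851 promoter windows of this length, 33.8% held the NF-Y box, 14.0% the nuclear receptor motif, 6.02% the E-box and 1.05% the sterol element. For 37 of the 45 members a promoter was listed, with 52 windows in all, of which 20 held the NF-Y box, 13 the nuclear receptor motif, 5 the E-box and 1, of Mlxipl, the sterol element. A match is a description of letters in these windows and does not show binding.

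Among the other pathway genes, 13 of the 62 measured were pericentral, against 7.61% of all genes, and 6 were periportal, against 8.68%. Khk, the ketohexokinase, was periportal beside Fasn and Acly, at 4.04-fold and 2.89-fold. Ces3a and Ces1d, carboxylesterases that hydrolyse stored lipid, were pericentral at 3.72-fold and 3.20-fold and at 3.11-fold and 2.90-fold. Acsl1 was pericentral at 2.24-fold and 2.09-fold.

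Across the cell classes read, the genes of fatty acid synthesis were highest in hepatocytes. Another class was highest in both libraries for 5 of the 6 genes of lipolysis and 5 of the 7 for uptake and binding. The same held for 74.2% of all genes. Among the 11 classes that reached 50 cells in both libraries, hepatocytes had the highest level in both libraries for 25 of 43 members, against 19.7% of all genes, and another class was highest in both for 15, a smaller share than the 74.2% of all genes. All 7 genes of fatty acid synthesis were highest in hepatocytes. Hepatocytes were ranked as a whole, although their Malat1-rich and Malat1-poor clusters differed strongly in some members. The ranking left out 8 clusters without a class name. Among them, cluster 15, with markers of monocytes and neutrophils, had Pparg at 222 and 176 CPM, above the 55.5 and 38.9 CPM of hepatocytes. For 19 of the 25, the next class was the stellate/fibroblast-like cells in both libraries, and hepatocytes exceeded the next class by a median of 1.56-fold in the knockout-labelled and 1.90-fold in the wild-type library. That class, of 10623387 and 10113133 UMIs, included a cluster with Alb at 6044 CPM. With the cluster, Mlxipl was at 571 and 405 CPM in the class, and without it only 139 and 255 Mlxipl UMIs remained. The part of hepatocyte RNA in these levels was not tested.

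Endothelial-like cells led for Cd36, Fabp4, Fabp5 and Mgll. Fabp4, a binding protein known from adipocytes and capillary endothelium, was at 1827 and 1743 CPM there, against 47.0 and 50.4 CPM in hepatocytes. Cd36, a fatty acid translocase, was at 493 and 529 CPM against 18.5 and 15.9 CPM. Fabp5 was at 554 and 549 CPM and Mgll at 324 and 335 CPM. In the Malat1-poor hepatocytes taken alone, Fabp5 was higher than in endothelial-like cells, at 903 and 1267 CPM. The levels of Fabp4 in hepatocytes were under 10% of the endothelial level, so they may be free RNA in part, which was not tested.

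Kupffer-like cells, the resident macrophages of liver, led for Lpl, Plin2 and Hilpda. Lpl was at 592 and 659 CPM, 14.0-fold and 17.0-fold above hepatocytes. Plin2 was at 522 and 469.8 CPM, above the 175 and 223 CPM of hepatocytes, so this droplet coat gene was highest in a macrophage class. Hilpda, an inhibitor of the lipase Pnpla2, was at 229 and 166 CPM against 5.71 and 4.92 CPM in hepatocytes.

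Neutrophil-like cells, 66 and 99 in number, led for G0s2, Dgat1, Pnpla2 and Slc27a4. G0s2 was at 3365 and 3393 CPM from 851 and 952 UMIs, 30.4-fold and 27.7-fold above hepatocytes. Dgat1, the other enzyme that completes triglycerides, was at 518 and 478 CPM from 131 and 134 UMIs, and stood at 472 and 431 CPM in NK/ILC1-like cells and 266 and 238 CPM in T cell-like cells. In hepatocytes Dgat1 was at 18.8 and 17.0 CPM, under 10% of the highest class. Dgat2 had its highest level in hepatocytes, so the 2 acyltransferases had opposite class patterns. Pnpla2 and Slc27a4 rested on 30 and 25 UMIs and on 23 and 22 UMIs in neutrophil-like cells.

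Plin3 was highest in cholangiocyte-like cells, at 66.9 and 77.8 CPM. Elovl5 was highest in T cell-like cells in the knockout-labelled library (191 CPM) and in NK/ILC1-like cells in the wild-type library (168 CPM), with hepatocytes at 179 and 139 CPM. Abhd5, the activator of Pnpla2, was highest in endothelial-like cells (33.2 CPM) and neutrophil-like cells (39.2 CPM), and Lipe in conventional dendritic-like cells (35.6 CPM) and neutrophil-like cells (28.5 CPM, 8 UMIs). The remaining 3 changed sides between the libraries. Scd1 was highest in B cell-like cells in the knockout-labelled library (303 CPM, with hepatocytes at 176). In the wild-type library it was highest in hepatocytes (344 CPM, with B cell-like cells at 338). In the Malat1-poor hepatocytes taken alone, Scd1 was at 539 and 831 CPM. Clusters 10 and 30, which had no class name, had it at 523 and 727 CPM and at 512 and 717 CPM. Agpat2 and Plin4 changed between hepatocytes and cholangiocyte-like cells. Cidea had 9 and 7 UMIs in all kept cells, of which 7 and 3 were in cholangiocyte-like cells, and Mogat1 had 30 and 18.

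**Figure D4:**
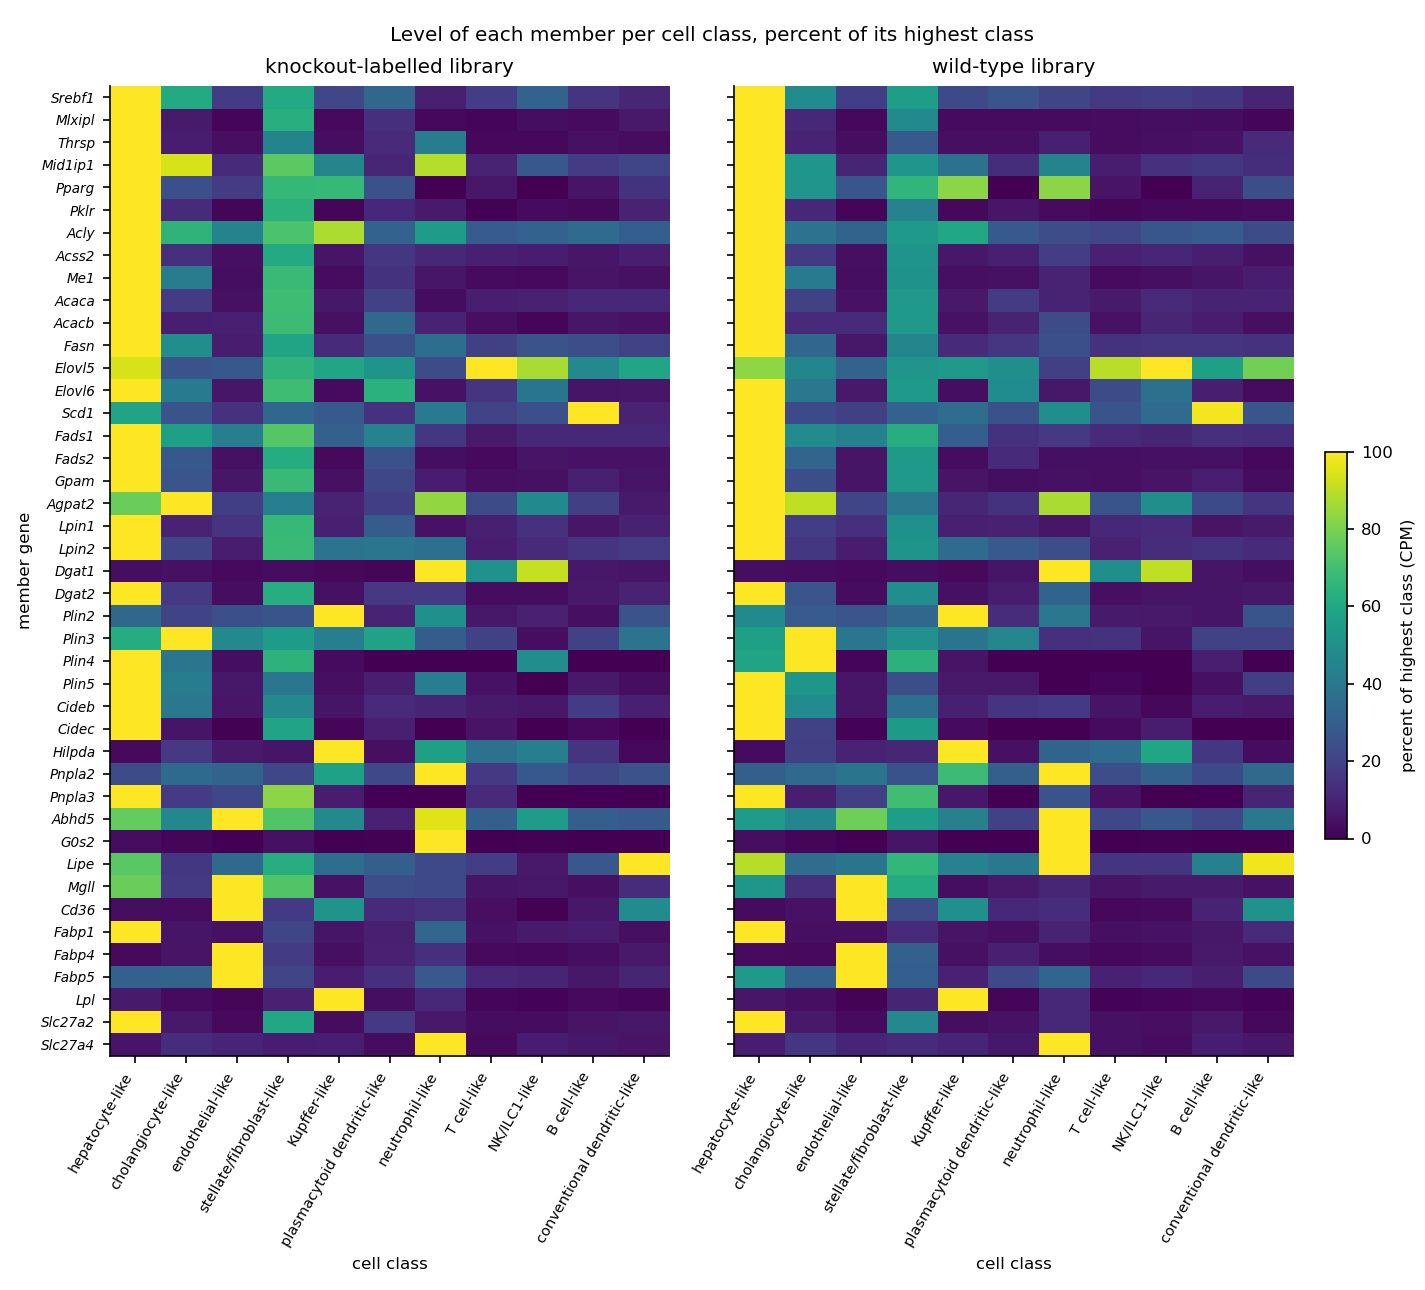
Level of each member (rows, those with at least 50 UMIs in the knockout-labelled library) in 11 cell classes (columns), as a percent of its highest class (colour), for the knockout-labelled (left) and the wild-type library (right). Genes of fatty acid synthesis have their highest cell in the hepatocyte column in both panels, Cd36 and Fabp4 in the endothelial column, Lpl and Hilpda in the Kupffer column and G0s2 and Dgat1 in the neutrophil column.

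Between the libraries in other classes, lower Scd1 recurred. It was at 84.8 and 122 CPM in Kupffer-like cells, with a ratio of 0.693 (0.640 to 0.750), at 43.0 and 65.7 CPM in endothelial-like cells (0.655, 0.605 to 0.709), at 62.0 and 89.2 CPM in T cell-like cells (0.695, 0.560 to 0.858) and at 74.0 and 121 CPM in NK/ILC1-like cells (0.613, 0.446 to 0.835). In B cell-like cells it was at 303 and 338 CPM (0.897, 0.817 to 0.985), and in stellate/fibroblast-like cells its interval of 0.864 to 1.02 contained 1. Alb, an RNA made by hepatocytes, was read in these classes at 1895 to 5060 CPM in the knockout-labelled and 1900.2 to 4652 CPM in the wild-type library, and at 8227 and 11008 CPM in hepatocytes. How far free hepatocyte RNA takes part in the lower Scd1 of other classes was not tested.

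Counting only members above the level set for free RNA, Kupffer-like cells had 1 of 19 members higher by the 25% rule, against 2.19% of all genes, and 1 lower, against 3.99%. The higher one was Hilpda, at 229 and 166 CPM (1.38, 1.30 to 1.46). Endothelial-like cells had 0 of 21 higher, against 1.29%, and 2 lower, Scd1 and Mid1ip1, against 1.58%. T cell-like cells had 2 of 13 higher, Elovl5 (1.27) and Hilpda (1.49), against 4%, and 3 lower, Scd1, Elovl6 (0.735) and Lpin1 (0.694), against 3.73%. NK/ILC1-like cells had 0 of 14 higher, against 3.11%, and 1 lower, Scd1, against 5.24%. B cell-like cells had 1 of 15 higher, Fasn at 42.3 and 30.6 CPM from 101 and 106 UMIs (1.38, 1.04 to 1.83), against 2.96%, and 0 lower, against 4.12%. These counts come from the same 2 libraries and are not independent of one another.

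Stellate/fibroblast-like cells had 17 of 40 members higher, against 15.4% of all genes, and 5 lower, against 15.9%. All the higher ones but Elovl5 were genes with their highest level in hepatocytes, among them Slc27a2 (1.61), Fads2 (1.54) and Mlxipl (1.41), and the lower ones were Hilpda, Cd36, Fabp4, Fabp5 and Lpl. Alb was also higher in this class in the knockout-labelled library, at 4548 and 3536 CPM. Of its 3 clusters, the one with 382 and 349 cells had Alb at 6044 CPM and the other two at 1421 and 2444 CPM. Without that cluster, 1 member was higher, Fabp1 at 1.33 (1.23 to 1.43), and 4 were lower, Mlxipl, Pklr, Scd1 and Lpin1. The share of all genes without that cluster is not given here, so these counts cannot be set against genes at large.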

How the data were processed

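Liver cells of 2 libraries, 1 labelled knockout and 1 labelled wild type, were profiled with the 3′ v3 chemistry of the Chromium platform, per the labels. The deposited values are raw UMI counts per gene and barcode without normalization, and per the file headers they were made with Cell Ranger 8.0.1. The names Cell Ranger, STAR and mm10 stand in the submitters' processing notes. The annotation used for counting was not given in the sources used here. All barcodes held at least 500 UMIs. Cells were kept with at least 300 genes and at most 20% mitochondrial UMIs. Scrublet in scanpy 1.11.5, with the automatic threshold of each library, marked 332 and 429 barcodes (2.90% and 3.45%) as doublets, which were removed. Free RNA was not subtracted. Leiden clustering at resolution 1 used no member and no other pathway gene, and clusters were named from marker lists, so names are rebuilt and stand for marker patterns. Counts were summed per class and library. CPM have exact Poisson intervals, ratios and shares exact Clopper-Pearson intervals, at 95%, for counting error only; UMIs count molecules. No p-value was computed, and no count model was used. The code for the size rules was checked on simulated counts with known folds. Classes were read with at least 50 cells and compared with at least 100 cells per library. A class was set aside as possible free RNA for a gene under 10% of its highest class in both libraries.

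The zone coordinate rested on 20 pericentral and 18 periportal landmark genes. All members are accounted for, and values are given for members past a size rule, the most abundant members of each role, zoned members and those highest outside hepatocytes. The members, lists, landmarks and rules were chosen with earlier results of these data known. The split by Malat1, with a limit of 1% of UMIs and at least 100 cells in each library, and the choice of promoters printed were made after seeing the data. Alternatives tried were doublets kept, other mitochondrial limits, scalings, weights, resolutions, minimum counts and ratios, zone bins and landmarks, and thinning depths. Promoters came from RefSeq (GRCm38.p6), and the promoters of 8 members without an entry were not analysed here. Values of some other pathway genes are not reported here.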

Additional observations from a re-analysis of the deposited data

Results flagged for a closer look

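Members that passed the 25% rule in opposite directions in different cell classes, with levels above the limit set for free RNA, numbered 3. The share of all genes that did so is not given here, so this count is not a result about the members. The ratio of the knockout-labelled to the wild-type library for Hilpda was high in Kupffer-like cells (1.38) and T cell-like cells (1.49) and low in stellate/fibroblast-like cells (0.745). Elovl6 was higher in stellate/fibroblast-like cells (1.39) and lower in T cell-like cells (0.735). Without the stellate/fibroblast-like cluster with most Alb, chosen after seeing the data, that class had ratios of 0.922 (0.704 to 1.20) for Hilpda and 1.09 (0.817 to 1.45) for Elovl6, and neither passed the rule there. Fabp1 was higher in stellate/fibroblast-like cells (1.39) and lower in hepatocytes (0.789), with 1.33 in the first class without that cluster and 1.17 in the Malat1-rich hepatocytes. With 1 library per genotype, none of these differences between classes was tested.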

How the results depend on the processing

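No paired analysis was possible because each group held 1 library. Among the alternatives planned, 276 results were within the limits set and 65 had moved, none with a change of direction. No member passed the 2-fold rule as reported, but Scd1 did with doublets kept, with scaling by the median gene ratio and at resolution 0.5 (1 member in each case). Its ratio lay between 0.493 and 0.586 over 10 of these alternatives. With a ratio of 1.5 as the rule, 4 members passed, 1 higher (Cidec, against 1.1% of all genes) and 3 lower (Mid1ip1, Scd1 and Fabp5, against 0.735%).

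The alternatives added after seeing the data moved more. Fabp1 turned to 1.03 with clusters weighted alike and to 1.17 in Malat1-rich clusters, where Fabp5 turned to 1.44. In the Malat1-poor cluster the members higher by the 25% rule numbered 0, and Pparg (0.836), Elovl5 (0.782), Fads2 (0.829) and Plin2 (1.18) changed sides. Pericentral members numbered 2 in Malat1-rich clusters, and periportal members 4 in the Malat1-poor cluster. The pericentral over periportal ratio turned in Malat1-rich clusters for Fabp1 (1.18 in the knockout-labelled and 1.16 in the wild-type library) and Fabp5 (1.60 in the knockout-labelled library). It turned in the Malat1-poor cluster for Fabp1 (1.43 and 1.22), for Fabp5 (1.39) and Acaca (1.29) in the knockout-labelled library, and for Pnpla3 (1.15) in the wild-type library, which left 2 UMIs at the pericentral end. Without the stellate/fibroblast-like cluster with most Alb, members higher in other classes went from 21 to 5, with no share of all genes given for the second count. The cause of each turn was not tested. Depth left Cidea and Mogat1 out of the comparison in hepatocytes and gave few UMIs for Plin4, Hilpda and Slc27a4, and no alternative stands in for a second animal.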
